A study of Mus musculus with 10 samples.

Results

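Purkinje cell calcium-buffer and signature genes were followed here in mouse medulloblastoma and in the cerebellum beside it. The set was defined by 10 gene symbols, Pcp2, Pcp4, Pcp4l1, Calb1, Calb2, Pvalb, Car8, Itpr1, Rora and Dner, and by all probe sets annotated to only 1 of them. This gave 25 probe sets of 45137 on both chips, for 9 of the genes. Itpr1, the inositol trisphosphate receptor of the calcium store, was not analysed here. The 430A chip held 16 of the probe sets, covering all 9 genes, and the 430B chip held 9, for Calb1, Car8 and Rora. All 25 passed the filter on low values, which takes the mean over the tumour and cerebellum arrays of a chip. In 1448738_at and 1456934_at of Calb1 and 1457904_at of Car8 every tumour reading lay under its limit. These passed only through their cerebellum readings, and they are counted among the falls below.

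Tumours and adjacent cerebellar tissue, called wild type in the labels, both came from mice that carried CAGGS-CreER and R26-SmoM2 and had received tamoxifen on postnatal day 10 (1 mg per 40 g of body weight). CAGGS is a broadly active promoter, CreER is a recombinase switched on by tamoxifen, and SmoM2 is an activated Smoothened that turns on Hedgehog signalling once recombined. The cerebellum samples therefore share the alleles and the drug with the tumours, and their state of recombination was not tested. On each of the 2 Affymetrix chips there were 3 tumour arrays and 2 cerebellum arrays, with no age at collection, strain or sex used here. The labels call them biological replicates without naming animals, so p-values measure only how far these arrays spread, and some of that may be technical.

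Purkinje cells are the large GABAergic output neurons of the cerebellar cortex. They meet strong calcium entry and calcium release from internal stores with a high load of calcium-binding proteins, and the cytosolic buffers calbindin (Calb1) and parvalbumin (Pvalb) are classical labels for them. Some of the genes are shared with other cells: parvalbumin also marks basket and stellate interneurons, and calretinin (Calb2) marks granule neurons and unipolar brush cells more than Purkinje cells.

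Nearly the whole set was low in medulloblastoma. In the fit of log2(intensity + 16) with limma, 15 of 16 probe sets on 430A fell at an adjusted p below 0.05, where 19.0% of all 16969 tested probe sets did. On 430B 7 of 9 fell, against 9.77% of 16883. No probe set of the set was called higher in limma, and none was higher at an unadjusted p below 0.05, while 13.1% and 7.85% of all probe sets were called higher on the 2 chips. The median log2 fold change of tumour over cerebellum was -3.52 on 430A and -2.38 on 430B, beside -0.05 and -0.02 over all tested probe sets. Every tumour lay below every cerebellum array in 15 of 16 and 8 of 9 probe sets, against 31.8% and 24.7% of all tested. Each of the 9 genes had at least 1 probe set that fell. RNA came from pieces of tissue, so fewer Purkinje cells and less RNA per cell cannot be told apart.

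**Figure D1:**
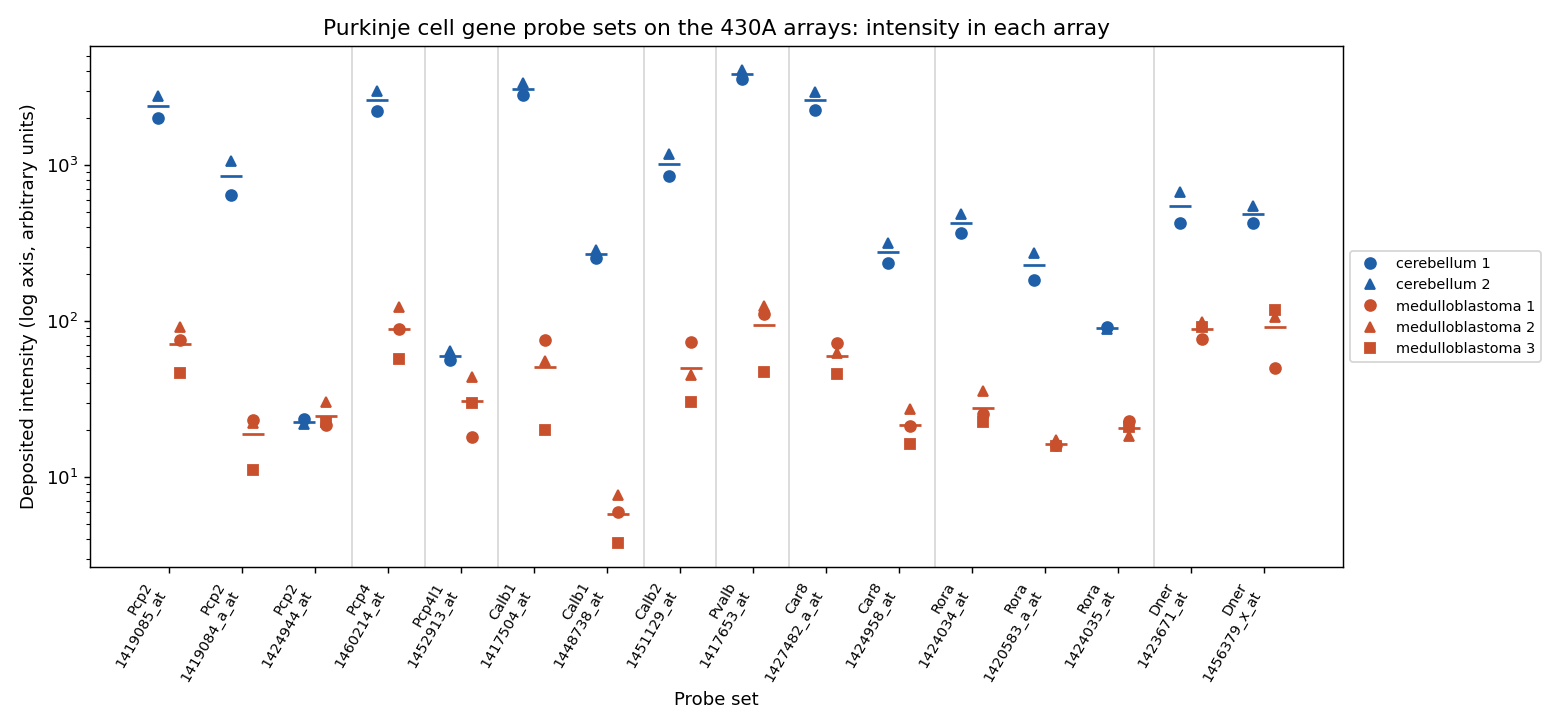
Deposited intensity (log axis, arbitrary units) of the 16 probe sets on each of the 5 arrays of 430A, with blue symbols for the 2 cerebellum samples, orange symbols for the 3 tumours and a short line at each arithmetic mean. All probe sets except 1424944_at of Pcp2 have the tumours below the cerebellum samples.

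Of the genes named for Purkinje cells, Pcp2 and Pcp4 fell deeply in all but 1 probe set, and Pcp4l1 fell less. Pcp2, also called L7, encodes a regulator of G protein signalling found almost only in Purkinje cells and retinal bipolar cells. Its probe set 1419085_at read 2007 and 2799 in the cerebellum samples and 75.8, 91.8 and 46.8 in tumours 1, 2 and 3. The tumour mean of 71.4 ± 22.8 (SD, n = 3) was 2.97% of the cerebellum mean of 2403 ± 560 (SD, n = 2), and the log2 fold change was -4.81 ± 0.26 (SE; limma adjusted p = 5.73e-07). A second probe set, 1419084_a_at, read 645 and 1058 in cerebellum and 23.1, 22.3 and 11.0 in tumours, a log2 fold change of -4.62 ± 0.25 (limma adjusted p = 6.1e-07). Both had the lowest reading in tumour 3, and neither overlapped between tissues.

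The third Pcp2 probe set was dim and showed no fall. Probe set 1424944_at read 23.6 and 21.8 in cerebellum and 21.5, 30.4 and 22.4 in tumours, so the groups overlapped. Its log2 fold change was 0.07, with a 95% confidence interval from -0.26 to 0.40 (limma adjusted p = 0.778). With 16 added before taking logs, this value could not have fallen below -1.27, even with tumours at 0. The intervals of the other Pcp2 probe sets, which ended at -4.23 and -4.06 on their upper side, were thus out of its reach. The sources used here do not say which Pcp2 transcript 1424944_at detects, and its readings in cerebellum were near the filter limit of 15.9.

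Pcp4, known as PEP-19, is a small IQ-motif protein that binds calmodulin and alters how fast it exchanges calcium. It read 2218 and 2999.9 in cerebellum and 89.0, 123 and 57.1 in tumours, a log2 fold change of -4.67 ± 0.27 (limma adjusted p = 8.96e-07). The tumours kept 3.44% of the cerebellum mean, with tumour 2 highest and tumour 3 lowest. Its relative Pcp4l1, which carries a similar IQ motif, behaved less uniformly. Pcp4l1 read 56.0 and 64.1 in cerebellum and 18.1, 43.6 and 30.0 in tumours, without overlap, and the tumour mean was 50.9% of the cerebellum mean. Its log2 fold change was -0.74 ± 0.22 (limma adjusted p = 0.0214). The call ended without tumour 1 (-0.54, adjusted p = 0.0784), without cerebellum 1 (-0.82, adjusted p = 0.068) and without cerebellum 2 (-0.66, adjusted p = 0.145).

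Among the calcium buffers the widest gap belonged to Calb1, the EF-hand protein calbindin that binds calcium rapidly in Purkinje cell dendrites and spines. Probe set 1417504_at read 2807 and 3387 in cerebellum and 76.1, 55.5 and 19.9 in tumours, so 1.63% of the cerebellum mean was left. The log2 fold change was -5.65 ± 0.34 (limma adjusted p = 9.3e-07). Tumours differed among themselves by 3.82-fold here, the widest range between tumours in the set, and tumour 3 was lowest. Probe set 1448738_at gave 253 and 284 against 5.98, 7.69 and 3.75, a log2 fold change of -3.71 ± 0.16 (limma adjusted p = 3.57e-07).

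The 430B chip measured Calb1 again. There 1456934_at read 296 and 334 in cerebellum and 5.06, 8.28 and 7.33 in tumours, leaving 2.19% of the cerebellum mean (log2 fold change -3.85 ± 0.15, limma adjusted p = 5.59e-06). In 1448738_at and 1456934_at, and in 1457904_at of Car8, all tumour readings lay under the filter limits, intensities of 15.9 on 430A and 11.3 on 430B. Some but not all did in 1419084_a_at of Pcp2, 1420583_a_at of Rora and the dim Calb1 probe set given next. Whether such readings exceed background is not known here, so their percentages are nominal. A further, dim probe set, 1458836_at, read 30.1 and 23.2 in cerebellum and 6.30, 6.90 and 14.8 in tumours. Its log2 fold change of -0.76 ± 0.18 (limma adjusted p = 0.015) could not have fallen below -1.42 on this scale, even with tumours at 0. It was not called without tumour 2 (-0.70, adjusted p = 0.0617), cerebellum 1 (-0.65, adjusted p = 0.167) or cerebellum 2 (-0.88, adjusted p = 0.0633).

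Pvalb, the slow EF-hand buffer parvalbumin, read 3597 and 4109 in cerebellum and 111, 125 and 46.9 in tumours. The tumour mean of 94.1 ± 41.4 (SD, n = 3) was 2.44% of the cerebellum mean, and the log2 fold change was -5.22 ± 0.31 (limma adjusted p = 8.96e-07). Calb2, which encodes calretinin, read 851 and 1190 in cerebellum and 74.0, 45.5 and 30.1 in tumours. It kept 4.89% of the cerebellum mean and had a log2 fold change of -4.01 ± 0.28 (limma adjusted p = 2.32e-06). All 3 buffers thus fell, each with its lowest 430A reading in tumour 3, although the cells that use them differ.

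The marker lists of those other cells moved as well, where over all 14702 genes 2358 were called lower and 10.7% higher. All 8 measured markers of mature granule neurons fell, with summed intensities of 5040 and 5429 in cerebellum and 190 to 251 in tumours. Of 9 markers of GABAergic interneurons 6 fell, with sums of 1524 and 2037 against 236 to 295. Gad1 made up most of the cerebellum sums, with 904 and 1320, and Purkinje cells are GABAergic too. Gad2 (log2 fold change -0.15), Slc32a1 (0.01) and Grm2 (-0.42) were not called. Among 3 markers of unipolar brush cells Eomes fell and Otx2 rose, and their sums, 114 and 106 against 96.5 to 140, overlapped. Markers of Bergmann glia and astrocytes fell in 7 of 10 genes (sums of 5746 and 6700 against 1762 to 2600) and those of oligodendrocytes in 5 of 5 (3809 and 4728 against 135 to 291), whereas 4 of 6 microglial markers rose (353 and 298 against 763 to 928). The cerebellum samples thus carried the markers of their labelled tissue. No value of these lists was at the floor of 1. The part these cells have in the values of Calb2 and Pvalb was not tested.

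Car8 belongs to the carbonic anhydrase family but lacks the catalytic activity, and its protein binds the inositol trisphosphate receptor and lowers its affinity for the ligand. Probe set 1427482_a_at read 2268 and 2951 in cerebellum and 72.6, 62.1 and 45.6 in tumours (log2 fold change -5.11 ± 0.23, limma adjusted p = 3.74e-07). Probe set 1424958_at read 237 and 318 against 21.3, 27.1 and 16.3 (log2 fold change -2.96 ± 0.20, limma adjusted p = 1.75e-06). On 430B, 1457904_at read 180 and 216 against 10.7, 8.65 and 3.65 (log2 fold change -3.19 ± 0.17, limma adjusted p = 5.59e-06). All 3 probe sets separated the tissues, and the tumours kept 2.30%, 7.77% and 3.86% of the cerebellum mean.

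**Figure D2:**
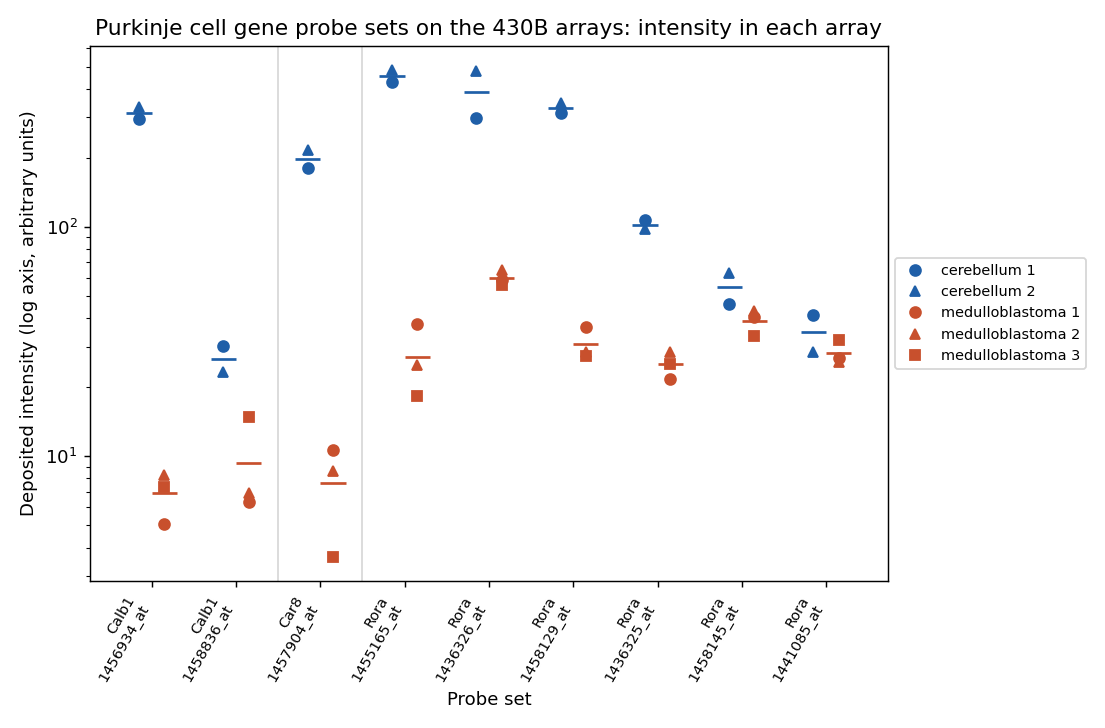
Deposited intensity (log axis, arbitrary units) of the 9 probe sets on each of the 5 arrays of 430B, with blue symbols for the 2 cerebellum samples, orange symbols for the 3 tumours and a short line at each arithmetic mean. The groups overlap in 1441085_at of Rora, and in the other 8 probe sets the tumours lie below the cerebellum samples.

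Rora, the nuclear receptor whose loss in staggerer mice stunts Purkinje cells, had 9 probe sets, more than any other gene of the set. Of these 7 fell, 3 of 3 on 430A and 4 of 6 on 430B. On 430A, 1424034_at read 366 and 484 in cerebellum and 25.4, 35.4 and 22.5 in tumours (log2 fold change -3.33 ± 0.21, limma adjusted p = 1.09e-06). The second, 1420583_a_at, read 184 and 272 against 16.1, 17.3 and 15.8 (-2.89 ± 0.19, adjusted p = 1.42e-06). Its tumour readings were nearly level but lay close to the filter limit of 15.9, and whether they exceed background is not known here. The third, 1424035_at, read 91.2 and 89.4 against 23.0, 18.4 and 20.9 (-1.53 ± 0.15, adjusted p = 1.71e-05). In none of the 3 did a tumour come near a cerebellum sample.

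On 430B the largest fall of Rora was in 1455165_at, with 430 and 482 in cerebellum and 37.7, 24.9 and 18.3 in tumours (log2 fold change -3.48 ± 0.22, limma adjusted p = 6.55e-06). Probe set 1458129_at read 314 and 347 against 36.7, 28.5 and 27.3 (-2.89 ± 0.18, adjusted p = 6.54e-06). Probe set 1436326_at read 299 and 478 against 58.6, 65.1 and 55.8 (-2.38 ± 0.23, adjusted p = 7.39e-05), where the cerebellum samples differed from each other by 1.60-fold. In 1436325_at, 107 and 97.8 stood against 21.8, 28.6 and 25.4 (-1.52 ± 0.15, adjusted p = 7.98e-05). The 7 probe sets that fell left between 5.92% and 24.7% of the cerebellum mean, a wider range than in Calb1 without its dim probe set.

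The remaining Rora probe sets did not pass the test. Probe set 1458145_at read 46.3 and 62.6 in cerebellum and 40.4, 42.8 and 33.4 in tumours, without overlap, and its log2 fold change was -0.35 with a 95% confidence interval from -0.72 to 0.01 (limma adjusted p = 0.19). Probe set 1441085_at read 41.4 and 28.6 against 26.8, 25.6 and 32.1, with overlap, and its log2 fold change was -0.20 with an interval from -0.55 to 0.15 (adjusted p = 0.463). Neither interval reaches the falls of the other 7 probe sets. On this scale, however, 1458145_at could not have fallen below -2.14 and 1441085_at not below -1.67, whatever the tumours read. Only the falls of 1424035_at (-1.53) and 1436325_at (-1.52) were thus within reach, and the comparison says nothing on the larger falls. Which transcripts 1458145_at and 1441085_at detect is not given in the sources used here.

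Dner, a transmembrane protein with EGF repeats that Purkinje cells carry on their dendrites and that can activate Notch in Bergmann glia, fell less deeply. Probe set 1423671_at read 428 and 671 in cerebellum and 76.7, 98.2 and 91.7 in tumours (log2 fold change -2.40 ± 0.23, limma adjusted p = 1.7e-05). Probe set 1456379_x_at, whose suffix marks probes that may cross-hybridise, read 426 and 550 against 50.3, 107 and 117 (-2.28 ± 0.29, adjusted p = 1.28e-04). The tumours kept 16.2% and 18.7% of the cerebellum mean. Both Dner probe sets, which are on 430A, had their lowest reading in tumour 1, where the buffers on that chip had it in tumour 3.

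**Figure D3:**
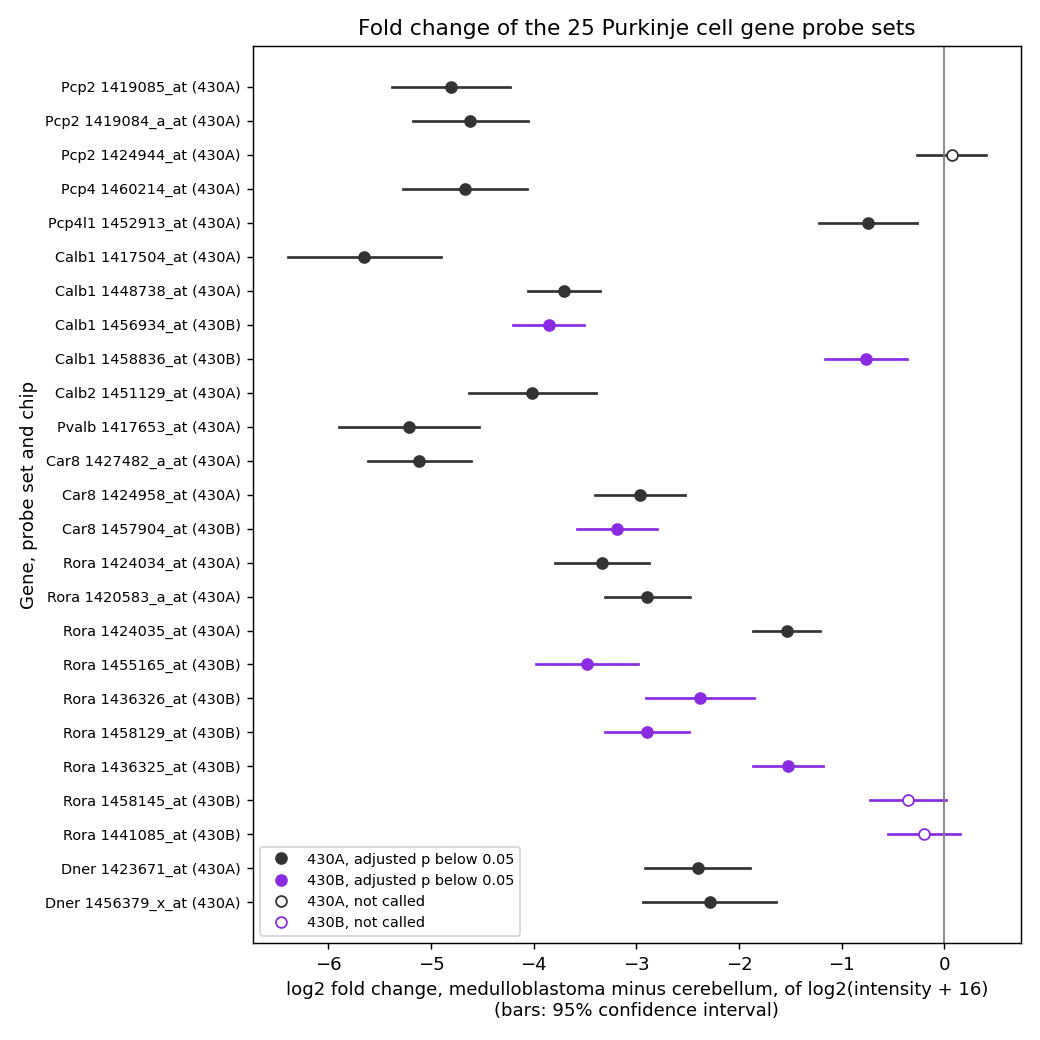
The log2 fold change of medulloblastoma minus cerebellum (points; filled where the limma adjusted p is below 0.05) with its 95% confidence interval (bars) for the 25 probe sets, in black for 430A and violet for 430B. Values run from -5.65 in 1417504_at of Calb1 to 0.07 in 1424944_at of Pcp2, and the 3 open points have intervals that include 0.

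Across broad classes the size of the fall went with the signal in cerebellum, which is itself 1 term of the fold change. The 6 probe sets with a cerebellum mean above 1000 had log2 fold changes from -5.65 to -4.01 and left 1.63% to 4.89% of it. The 13 between 100 and 1000 had -4.62 to -1.52 and left 2.16% to 24.7%, and all 19 of these probe sets were called. Of the 6 below 100, 3 were called, with values from -1.53 to 0.07. Between 100 and 1000 the order did not always hold. There 1423671_at of Dner (cerebellum mean 549) changed by -2.40, and 1448738_at of Calb1 (269) by -3.71. Adding 16 before taking logs limits the fall of a dim probe set. With 64 added in its place, 8 of the 22 called falls shrank by over 1.5 times, and with 1 added, 1 grew by that much, though all 22 calls held under both. Intensities of different probe sets are not on 1 scale, so these classes describe signal and not the abundance of a transcript.

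Both tissues varied among their own samples. On 430A cerebellum 2 read higher than cerebellum 1 in 14 of 16 probe sets, with a median ratio of 1.31, whereas over all tested probe sets 49.7% were higher and the median ratio was 0.998. On 430B this held in 6 of 9, with a median ratio of 1.12, against 46.1% of all. The shift was not particular to the set. Cerebellum 2 was also higher in 7 of 8 markers of granule neurons and 5 of 5 of oligodendrocytes. The same held for 11 of 12 other genes listed for Purkinje cells. It held for 5 of 9 markers of GABAergic interneurons and 1 of 6 of microglia. Granule neuron precursors are the proliferating cells of the developing cerebellum. Of their 11 markers 8 read lower in cerebellum 2 than in cerebellum 1. Among them Ccnd2 read 105 in cerebellum 1 and 21.3 in cerebellum 2, and Insm1 42.6 and 7.50. In tumours 8 of the 11 were called higher and 1 lower, Zic1, the brightest in cerebellum with 2149 and 2631. With Zic1 the list summed to 2679 and 2944 in the cerebellum samples and 3831 to 5391 in tumours. Without it, a split made after the values were seen, the sums were 530 and 312 against 2932 to 4067. No value of the list was at the floor of 1. The part of such cells in the difference between the cerebellum samples was not tested, and the falls were called with either sample left out except in Pcp4l1 and in 1458836_at of Calb1.

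Tumour 3 had the lowest of the tumour readings in 11 of 16 probe sets on 430A, against 29.7% of all tested, and in 5 of 9 on 430B, against 42.9%. The numbers of the tumours cannot be carried from chip to chip. Over the 100 probe sets that both chips hold, the deviations of tumour 1 on 430A correlated best with those of tumour 2 on 430B (r = 0.830), tumour 2 with tumour 3 (r = 0.862) and tumour 3 with tumour 1 (r = 0.729), a description across probe sets. Their median on 430B was 242 and 234 in tumours 1 and 2 but 145 in tumour 3 and 166 and 171 in the cerebellum samples. With the 430B arrays scaled to 1 median over these probe sets, the same number of Purkinje gene probe sets, 7 of 9, was called lower.

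Most of the other genes listed for Purkinje cells were low too. This list and those after it are described by counts, medians and single genes, and no list was tested as a set. Over all 14702 genes 2358 were called lower and 10.7% higher, and the median log2 fold change was -0.05. Each count below is to be read beside these shares. Among 12 measured genes of the Purkinje cell list 9 fell and 2 rose, with a median of -3.12. The 9 include Cbln1 (-3.22) and Aldoc (-4.06), which are not confined to Purkinje cells. Gng13, a G protein gamma subunit, fell to -5.17 ± 0.30, Rgs8, a regulator of G protein signalling, to -4.54 ± 0.18, and Ppp1r17, the phosphatase inhibitor called G-substrate, to -4.08 ± 0.25 in log2 fold change. The transcription factor genes Lhx1 (0.64 ± 0.22, limma adjusted p = 0.0455) and Ebf2 (0.40 ± 0.14, adjusted p = 0.0456) rose. Lhx1 lost its call without tumour 2, tumour 3, cerebellum 1 or cerebellum 2 (adjusted p 0.0586 to 0.207), and Ebf2 without tumour 1, tumour 3, cerebellum 1 or cerebellum 2 (0.0995 to 0.201). With no filter neither was called (adjusted p = 0.0678 and 0.0598), nor was Lhx1 with a pseudocount of 1 (0.0503) or Ebf2 without a trend (0.0757).

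Metabotropic glutamate receptor 1 signals in Purkinje cells through phospholipase C to calcium release. Of 6 measured partners of this route 4 fell and none rose, none also at an unadjusted p below 0.05 in limma, with a median log2 fold change of -2.02. Plcb4, a phospholipase C isoform found in Purkinje cells, changed by -2.55 ± 0.18. Enzymes that consume inositol trisphosphate fell as well, the phosphatase gene Inpp5a (-3.24 ± 0.21) and the kinase gene Itpka (-2.33 ± 0.19). Itpka had -1.17 with a pseudocount of 64 and -3.87 with 1.

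Pumps, stores and channels for calcium were more mixed, with 10 of 17 genes lower, none higher in limma and none higher at an unadjusted p below 0.05, and a median of -1.03. The plasma membrane calcium ATPases Atp2b3 (-3.68 ± 0.28) and Atp2b2 (-3.08 ± 0.31) and the reticulum pump Atp2a2 (-3.32 ± 0.19) fell most. Of 12 calmodulin effectors 8 fell and none rose, none also at an unadjusted p below 0.05 in limma, with a median of -1.43. Camkk2 (-2.82 ± 0.20) and Camk2b (-2.25 ± 0.20) encode kinases that respond to calmodulin, and Ppp3ca (-2.62 ± 0.22) encodes the catalytic subunit of calcineurin.

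Of 13 other calcium-binding proteins 6 fell and 1 rose, with a median of -0.74. Vsnl1 (-4.18 ± 0.20) and Hpcal1 (-3.08 ± 0.31), both neuronal calcium sensors, and Caln1 (-2.50 ± 0.18) fell most. Hpca, the neuronal calcium sensor hippocalcin, went the other way. It read 80.5 and 136 in cerebellum and 470, 313 and 229 in tumours, without overlap (log2 fold change 1.49 ± 0.30, limma adjusted p = 0.00269).

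The families of Car8, Rora and Dner were compared in the same manner. Of 13 other carbonic anhydrases 6 fell and none rose, none also at an unadjusted p below 0.05 in limma, with a median of -0.40, led by Car4 (-3.27 ± 0.16), Car2 (-3.12 ± 0.23) and Car10 (-2.62 ± 0.24). Of 3 measured ROR and REV-ERB receptors only Nr1d2 fell (-2.25 ± 0.22), and Nr1d1 had -0.40 ± 0.15 (limma adjusted p = 0.0705). Without tumour 2 Nr1d1 was called too (-0.49, adjusted p = 0.0246). Among 13 Notch receptors, ligands and targets none fell in limma, 2 were lower at an unadjusted p below 0.05, and 2 were called higher, with a median of 0.03. Without tumour 2, 2 of them were called lower. Hey1, a Notch target gene, had 1.47 ± 0.20 (adjusted p = 1.71e-04), and Rbpj, the DNA-binding partner of Notch, 0.64 ± 0.19 (adjusted p = 0.0239). Rbpj lost its call without cerebellum 1 (0.73, adjusted p = 0.0865) or cerebellum 2 (0.54, adjusted p = 0.227). Over all 5 arrays Dner fell and no gene of the Notch list was called lower. Over all genes, 2358 of 14702 were called lower and 10.7% higher. With 13 genes, the counts of the Notch list do not set it apart from these shares.

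**Figure D4:**
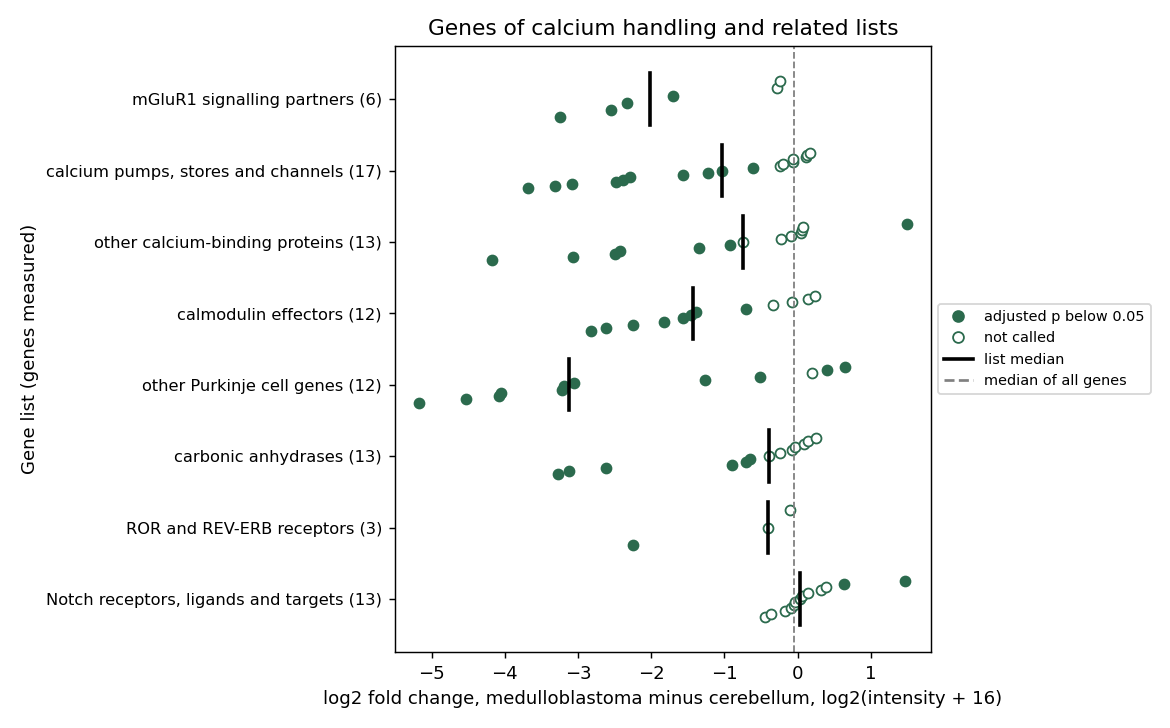
The log2 fold change of medulloblastoma minus cerebellum for each measured gene (points; filled where the limma adjusted p is below 0.05) of 8 lists, with a black line at each list median and a dashed line at the median of all 14702 genes, -0.05. List medians run from -3.12 in other Purkinje cell genes to 0.03 in the Notch list.

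The genes whose course over the 5 arrays of 430A came closest to the mean course of the 9 genes were Ppp1r17, Atp1b1, Dync1i1, Mobp and Vsnl1. Their root mean square distance from it, in log2 units after centring each gene, was 0.17, 0.18, 0.18, 0.21 and 0.22, the smallest among 9809 other genes. Within the set itself the distance was 0.22 for Calb2 and 1.62 for Pcp4l1. Mobp is a myelin gene of oligodendrocytes, and its readings were 451 and 571 in cerebellum and 18.2, 10.5 and 5.73 in tumours. How much of each distance lies between the tissues and how much within them was not tested.

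RORA, the product of Rora, binds the half-site AGGTCA. The 250 bases before the annotated starts were searched for these letters on both strands. Whether RORA acts on any of these genes was not tested. RefSeq promoter sequences for GRCm38.p6 matched 6 of the 10 genes, Pcp2, Pcp4, Pcp4l1, Pvalb, Rora and Dner, with 10 start sites in all. Of these 10 windows 5 held AGGTCA, in 3 genes, whereas 14.0% of 32851 windows and 15.8% of 27025 genes did. Of the longer forms AAGGTCA and TAGGTCA, which contain the same letters, AAGGTCA was in the Dner window. Either form was in 6.18% of all windows. Windows of Pcp2 overlap each other, so they are not independent, and a match is a description and not a site. One window of each gene with a match is given here, 5′ to 3′ on the strand of the gene, with the match in capitals.
Pcp2: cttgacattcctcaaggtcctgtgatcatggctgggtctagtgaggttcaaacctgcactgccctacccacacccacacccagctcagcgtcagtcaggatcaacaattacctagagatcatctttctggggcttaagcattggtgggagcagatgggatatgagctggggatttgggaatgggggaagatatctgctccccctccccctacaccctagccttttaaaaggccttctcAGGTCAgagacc
Pcp4: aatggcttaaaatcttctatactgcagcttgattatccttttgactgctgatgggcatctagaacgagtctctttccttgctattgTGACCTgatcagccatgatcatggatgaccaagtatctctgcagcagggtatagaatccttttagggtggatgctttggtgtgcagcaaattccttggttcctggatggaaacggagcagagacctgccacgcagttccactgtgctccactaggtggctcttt
Dner: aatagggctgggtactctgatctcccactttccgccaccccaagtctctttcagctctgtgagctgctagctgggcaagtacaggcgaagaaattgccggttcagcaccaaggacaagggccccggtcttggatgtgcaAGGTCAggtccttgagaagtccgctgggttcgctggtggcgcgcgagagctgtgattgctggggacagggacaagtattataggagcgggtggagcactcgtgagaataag
The Pcp2 window is chr8:3625548-3625797 on the minus strand, just upstream of its outermost start, and its match begins 12 bases before that start. The Pcp4 window is chr16:96467356-96467605 on the plus strand, where the match lies on the opposite strand and appears as TGACCT, 164 bases before the start. The Dner window is chr1:84696222-84696471 on the minus strand, with a match 111 bases before the start. The genes shown differed in their fall, with Pcp2 and Pcp4 at -4.81 and -4.67 in log2 fold change and Dner at -2.40. The windows of Pvalb (-5.22), Pcp4l1 (-0.74) and Rora (-3.33 in 1424034_at) had no match.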

How the data were processed

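Per the labels' protocols, RNA was isolated with Trizol, and the hybridised target was biotinylated cRNA. The authors deposited a linear intensity per probe set and array. How they were scaled and background-corrected, and with which software, is not given in the sources used here. No detection calls were used. Array medians were 33.3 to 35.9 on 430A and 22.5 to 24.0 on 430B, and 298 to 477 values per array stood at exactly 1. The number of arrays limits the precision.

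Groups and replicate numbers came from the titles. Intensities were used as log2(value + 16) with no further normalization, which is the scale of each fold change. Probe sets in the lowest 25% by mean log2 value were not tested. Each chip was fitted alone with limma 3.58.1 in R 4.3.3 (lmFit, eBayes with trend, two-sided), with Benjamini-Hochberg adjustment over the chip's tested probe sets. The fit was tested on simulated data. Gene names came from the platform annotation, and 9 of 9 analysed genes matched the GRCm38.p6 gene table by identifier. In the lists 1 probe set stood for a gene (430A before 430B, suffixes other than _s_at and _x_at first, then the highest mean).

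The genes, lists and tests were chosen with earlier results of these data known. The text names every probe set of the set, per list up to 3 called genes in each direction by size (the 2 smallest p where under 2 passed), and the 5 genes nearest in course. Cbln1, Aldoc, Ccnd2, Insm1, Zic1, Eomes, Otx2, Gad1, Gad2, Slc32a1, Grm2 and the readings of Mobp were picked after their values were seen. Alternatives were other pseudocounts, normalizations, filters and thresholds, no trend, the replicate number as a block, the brightest probe set per gene and each array left out. Plots used matplotlib 3.10.9 (Python 3.11.15).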

Additional observations from a re-analysis of the deposited data

How the results depend on the processing

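The counts of Purkinje gene probe sets that fell held in all alternatives run, at 14 or 15 on 430A and 6 or 7 on 430B, and none was called higher. Without 1 replicate each they ranged from 14 to 15 and from 6 to 7. The calls lost were those of Pcp4l1 1452913_at and Calb1 1458836_at. The log2 fold change of Pcp2 1424944_at, not called, turned to -0.026 without medulloblastoma 2 (adjusted p = 0.914, limma, and 0.588 to 0.940 over its alternatives), and it ranged from -0.026 to 0.13 without 1 replicate. Quantile normalization and equal array medians changed none of these calls.

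The counts over all probe sets moved more. At an adjusted p below 0.01, 1432 were higher on 430A, and on 430B 1069 were lower and 699 higher. Scaling 430B on the shared probe sets gave 768 higher there. Leaving out 1 replicate gave 1967 to 3743 lower and 1284 to 2800 higher on 430A, and 917 to 2262 lower and 513 to 2601 higher on 430B. Without cerebellum 1, 1436 were higher on 430A and 988 lower and 618 higher on 430B, and without medulloblastoma 2, 823 were higher on 430B. With 1 cerebellum array left, that sample is assumed to vary like the tumours. In the Notch list 0 to 2 genes fell without 1 replicate, and 1 to 2 ROR and REV-ERB receptors did. For the receptors it was 2 with the lowest 50% of probe sets left out and 2 with the brightest probe set per gene.

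With the replicate block, which leaves tumour 3 without a partner and so drops it from the contrast, 2822 were higher on 430B. Leaving out tumour 3 alone gave 2601. The block changed no call of a Purkinje gene probe set and ended that of Ebf2 (0.37, adjusted p = 0.113). The labels do not say that a number links a tumour to a cerebellum sample. The deviations of tumour and cerebellum 1 correlated at -0.03 on 430A and 0.11 on 430B, and those of pair 2 at 0.17 and 0.02. The largest value on 430A joined cerebellum 1 with tumour 3 (r = 0.25). The deviations of 2 cerebellum arrays mirror each other. These values therefore cannot decide whether a tumour and a cerebellum sample came from the same animal. Low signal limits the dim probe sets, and the cause of the other shifts was not tested.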
